A study of Mus musculus with 45 samples.

Results

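Emx1, Neurod6, Fezf2, Tbr1, Bcl11b, Foxp2, Isl1, Six3 and Rarb are 9 transcription factors that mark regional and neuronal identity in the forebrain. They were taken by name from a table of 18135 genes, and all 9 had a row. Each was followed through 45 samples of RNA sequencing from male C57BL/6J mice at 13 weeks of age. The samples came from the prefrontal cortex, termed cortex here, the hippocampus and the striatum, with 5 mice for each of 3 genotypes in every region. WT mice carried no mutation, Shank3-HT mice were heterozygous and Shank3-HM mice homozygous for a deletion of exons 14 to 16 of Shank3, a scaffold protein of excitatory synapses. The labels call the homozygous mice knock-out. The deletion removes part of the gene, and Shank3 reads remained in every HM sample. The study describes 5 mice per group, which may mean that the same mice gave all 3 regions, but the labels do not tie samples to mice.

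Values are normalized counts, which the authors made comparable between libraries. The study's methods also speak of a normalization to gene size. Whether the values are per length was not established here, so the level of a gene was compared only with its own level in other samples, and sums over markers weigh each gene by its counts. The totals per sample were 26118607 to 29568983 normalized counts, and the sequencing depth behind them is not known. Shank3 checked the genotype labels, with means of 8005, 6138 and 4054 normalized counts in WT, HT and HM cortex (SD 725, 373 and 285, n = 5 each). No HM sample reached the lowest HT sample, and no HT sample reached the lowest WT sample, in any of the 3 regions. The summed level of 15 markers of striatal spiny projection neurons was 325160 to 444070 in striatum and 15196 to 20329 in hippocampus and cortex, with a single exception. The cortex sample of HM replicate 2 reached 92848, and results that rest on it are given with and without it. Choroid plexus markers, summed over 12 genes, spread most in hippocampus, from 6017 to 188000, and stood at 110170 in striatum of HT replicate 5 against 4843 to 8681 in the other 14 striatal samples. Their part in the results was not tested. Without that sample, none of the 9 genes was called in HT against WT or in HM against HT striatum.

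The dorsal part of the developing forebrain, the pallium, gives rise to the glutamatergic neurons of cortex and hippocampus, and the ventral part, the subpallium, gives rise to the striatum and to GABAergic neurons. Emx1 is a homeobox gene of pallial progenitors and their neurons, Neurod6 a basic helix-loop-helix factor of glutamatergic pallial neurons, Tbr1 a T-box factor of early-born cortical neurons, and Fezf2 a zinc finger factor that specifies deep-layer projection neurons. Isl1, Six3 and Rarb belong to striatal development: Isl1 is a LIM homeobox gene of direct-pathway and cholinergic neurons, Six3 a homeobox gene of indirect-pathway neurons, and Rarb a nuclear receptor for retinoic acid. Bcl11b, also called Ctip2, and Foxp2 are used on both sides, in deep-layer cortical neurons and in spiny projection neurons of the striatum.

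In the GENCODE annotation of GRCm38, 3 of the 9 genes share chromosome 6 and 2 share chromosome 14. Emx1 lies at chr6:85187438-85204462 on the plus strand, Neurod6 at chr6:55677822-55681263 on the minus strand and Foxp2 at chr6:14901349-15441977 on the plus strand. Fezf2 lies at chr14:12342094-12348189 on the minus strand and Rarb at chr14:16430839-16819156 on the minus strand. Tbr1 is at chr2:61802930-61814114 on the plus strand, Bcl11b at chr12:107910403-108003602 on the minus strand, Isl1 at chr13:116298281-116309689 on the minus strand and Six3 at chr17:85613608-85629302 on the plus strand. Values are per gene, over all its transcripts.

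RefSeq promoter sequences (GRCm38.p6) were at hand for 8 of the 9 genes, all but Foxp2, and the 250 bases before each start site were searched on both strands. Shown here are the windows of Neurod6, as a pallial gene, and of Isl1 and Six3, as striatal genes, which lie outside the exons of these genes, and stretches of Tbr1 and Rarb around their matches. The Neurod6 window is chr6:55681264-55681513 on the minus strand. The Isl1 window is chr13:116309690-116309938 on the minus strand. The Six3 window, chr17:85620584-85620833 on the plus strand, lies inside the Six3 gene and partly opposite the antisense gene Gm28528. The stretches are chr2:61804416-61804445 on the plus strand for Tbr1 and chr14:16575505-16575534 on the minus strand for Rarb, each inside an exon of a longer GENCODE transcript. Capitals mark the motif matches.
Neurod6: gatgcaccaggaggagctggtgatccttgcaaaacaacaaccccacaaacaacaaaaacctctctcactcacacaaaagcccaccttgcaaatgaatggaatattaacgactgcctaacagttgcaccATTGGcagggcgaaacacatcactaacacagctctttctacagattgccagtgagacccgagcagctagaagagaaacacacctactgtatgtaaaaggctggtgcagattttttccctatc
Isl1: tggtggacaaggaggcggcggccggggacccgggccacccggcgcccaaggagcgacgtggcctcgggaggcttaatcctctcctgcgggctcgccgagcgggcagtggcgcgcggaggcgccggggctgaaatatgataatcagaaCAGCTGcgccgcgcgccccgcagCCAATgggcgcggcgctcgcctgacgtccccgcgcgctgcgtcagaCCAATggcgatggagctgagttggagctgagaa
Six3: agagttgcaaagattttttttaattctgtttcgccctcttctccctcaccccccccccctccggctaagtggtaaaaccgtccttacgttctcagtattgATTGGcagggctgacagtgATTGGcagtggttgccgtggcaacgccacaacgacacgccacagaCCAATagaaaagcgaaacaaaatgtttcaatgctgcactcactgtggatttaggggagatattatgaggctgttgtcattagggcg
Tbr1: atccTAATTAatgtctatcTAATTAaatta
Rarb: ggaaggGTTCACcgaaaGTTCACtcgcata

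The capitals in Rarb are a direct repeat of GTTCAC with 5 bases between its copies, the type of element that retinoic acid receptors are known to bind. It stands 52 to 36 bases before the start site and was present in 2 of 32851 promoter windows of this length (0.00609%), among them that of Rarb itself. Only this exact repeat was searched and no other form of the element. The share therefore describes these letters and not how rare such elements are. The capitals in Tbr1 are 2 copies of TAATTA, a core of homeodomain binding sites, which 4.84% of windows contain. Those in Isl1 are CAGCTG, an E-box found in 13% of windows, and 2 copies of CCAAT, found in 33.8%. Six3 held 3 copies of CCAAT or its reverse complement, and Neurod6 held 1. TGTTTAC, a forkhead motif present in 3.17% of windows, and TATAAA, present in 12.4%, had no match in the 8 windows. Emx1, Fezf2 and Bcl11b matched none of the 6 motifs. None of these motifs overlapped another, and a match describes letters, not a bound site. The Isl1 and Emx1 windows were also rich in CG pairs, with 33 and 30 against a median of 6 over all windows, while Neurod6 had 3.

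The 4 pallial genes were low in striatum in all genotypes and high in cortex and hippocampus. Tbr1 was at 3935, 4044, 3923, 3793 and 3523 normalized counts in the 5 WT cortex samples. It was at 1132, 1129.8, 1011, 1074 and 1123 in WT hippocampus and at 194, 124, 253, 163 and 943 in WT striatum. Cortex was highest throughout and the 3 regions did not overlap, although the fifth striatal sample came close to the hippocampal range. The cortical mean was 11.5-fold the striatal one, a log2 difference of 3.95 (SE 0.54, adjusted p = 2.72e-08). It was 3.51-fold the hippocampal one, a log2 difference of 1.81 (SE 0.54, adjusted p = 0.00475). Tests were made with limma on log2(normalized count + 1), with p-values adjusted by the Benjamini-Hochberg method over all genes tested and a threshold of 0.05.

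Emx1 followed the same order. It was at 501, 387, 429.7, 478 and 372 in WT cortex, at 326, 238, 288, 203 and 203 in WT hippocampus and at 27.5, 4.20, 16.3, 10.4 and 47.0 in WT striatum. Every cortical sample was above every hippocampal sample, and striatum was lowest in all. The cortical mean was 20.6-fold the striatal mean, a log2 difference of 4.67 (SE 0.58, adjusted p = 3.15e-09). Cortex and hippocampus were 1.72-fold apart, and this did not pass the test over 45 samples, with a log2 difference of 0.80 (SE 0.58, adjusted p = 0.266). The SE of that fit pools the spread of all 9 groups. In a fit of WT cortex and WT hippocampus alone, the adjusted p by limma was 0.000385.

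Neurod6 had its highest level in hippocampus. WT hippocampus samples were at 5797, 5733, 6714, 4279.7 and 5207, WT cortex samples at 2499, 2621, 2331, 2250 and 2497 and WT striatum samples at 139.8, 89.2, 133, 124 and 606. The 3 regions did not overlap. Hippocampus exceeded striatum 25.4-fold in the means, a log2 difference of 5.04 (SE 0.71, adjusted p = 6.52e-08), and exceeded cortex 2.27-fold. The latter, a log2 difference of -1.17 for cortex minus hippocampus (SE 0.71, adjusted p = 0.177), did not pass in the fit over 45 samples. The SE of that fit pools the spread of all 9 groups. In a fit of WT cortex and WT hippocampus alone, the adjusted p by limma was 3.39e-07.

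Fezf2 did not differ between hippocampus and cortex beyond the spread of the samples. Its WT values were 879, 841, 812, 781 and 865 in cortex, 1033, 914, 816, 774 and 946 in hippocampus and 83.6, 51.7, 92.1, 68.1 and 169 in striatum. Cortical and hippocampal samples interleaved, and all 10 were above the striatal ones. The difference between cortex and hippocampus was -0.09 on the log2 scale, with a 95% interval of -0.63 to 0.44. Cortex was 9-fold the striatum, a log2 difference of 3.27 (SE 0.27, adjusted p = 3.95e-14).

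The genes used on both sides were highest in striatum. Bcl11b was at 10565, 11973, 10505, 10074 and 8185 in WT striatum, at 3730.2, 4402, 4292, 3653 and 3783 in WT hippocampus and at 1505, 1639, 1387, 1439 and 1384 in WT cortex. The regions formed 3 separate steps. Striatum was 2.58-fold the hippocampus and hippocampus 2.70-fold the cortex, and both steps passed, with a log2 difference of -1.43 (SE 0.13, adjusted p = 1.10e-12) for cortex minus hippocampus and a log2 difference of -1.36 (SE 0.13, adjusted p = 2.10e-12) for hippocampus minus striatum.

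Foxp2 had the other order of its lower regions, with cortex above hippocampus. It was at 2388, 2397, 2075, 1978 and 1939 in WT striatum, at 255, 296, 220.4, 253 and 189.9 in WT cortex and at 38.0, 58.6, 20.9, 44.5 and 34.0 in WT hippocampus. No region overlapped another. Cortex was 6.19-fold the hippocampus, a log2 difference of 2.66 (SE 0.26, adjusted p = 8.75e-12), and 8.88-fold below the striatum, a log2 difference of -3.15 (SE 0.26, adjusted p = 3.09e-14).

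The striatal genes were close to absent outside the striatum for Isl1, and low for Six3 and Rarb. Isl1 was at 389.9, 392, 349, 366 and 308 in WT striatum, at 1.74, 1.59, 0, 4.42 and 0 in WT cortex and at 0.775, 8.67, 0, 11.5 and 0.854 in WT hippocampus. Cortex and hippocampus overlapped, at values near 0, and the striatum was apart from both, with a log2 difference of -7.44 (SE 0.92, adjusted p = 2.90e-09) for cortex minus striatum. Isl1 was listed at 0 in 2 WT cortex samples and in 1 WT hippocampus sample.

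Six3 was lowest in cortex, higher in hippocampus and highest in striatum. It was at 4.49, 0.986, 1.27, 7.98 and 5.89 in WT cortex, at 22.4, 17.1, 20.3, 73.6 and 29.4 in WT hippocampus and at 1785, 1936, 1788, 1902 and 1862 in WT striatum. The regions did not overlap, and the hippocampal mean was 7.89-fold the cortical one, a log2 difference of -2.74 (SE 0.77, adjusted p = 0.0031) for cortex minus hippocampus. Against striatum, cortex had a log2 difference of -8.74 (SE 0.77, adjusted p = 4.12e-13). Six3os1, a noncoding gene on the opposite strand of Six3, has a row of its own with up to 609 normalized counts. Whether the quantification used strand is not given in the sources used here, so reads of Six3 and Six3os1 may not be told apart, and the same holds for Rarb and Top2b.

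Rarb was at 4967, 4915, 4745, 4691 and 4025 in WT striatum, at 161, 169.6, 200.2, 199.5 and 209 in WT cortex and at 144, 132, 153, 122 and 162 in WT hippocampus. Cortex and hippocampus overlapped at a single sample of hippocampus, which was above the lowest cortical sample, and striatum was far above both. The striatal mean was 24.8-fold the cortical one, a log2 difference of -4.63 (SE 0.29, adjusted p = 1.25e-17) for cortex minus striatum, and 32.7-fold the hippocampal one. Cortex minus hippocampus had a log2 difference of 0.39 (SE 0.29, adjusted p = 0.273) and did not pass in the fit over 45 samples. The SE of that fit pools the spread of all 9 groups. In a fit of WT cortex and WT hippocampus alone, the adjusted p by limma was 0.0139.

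**Figure D1:**
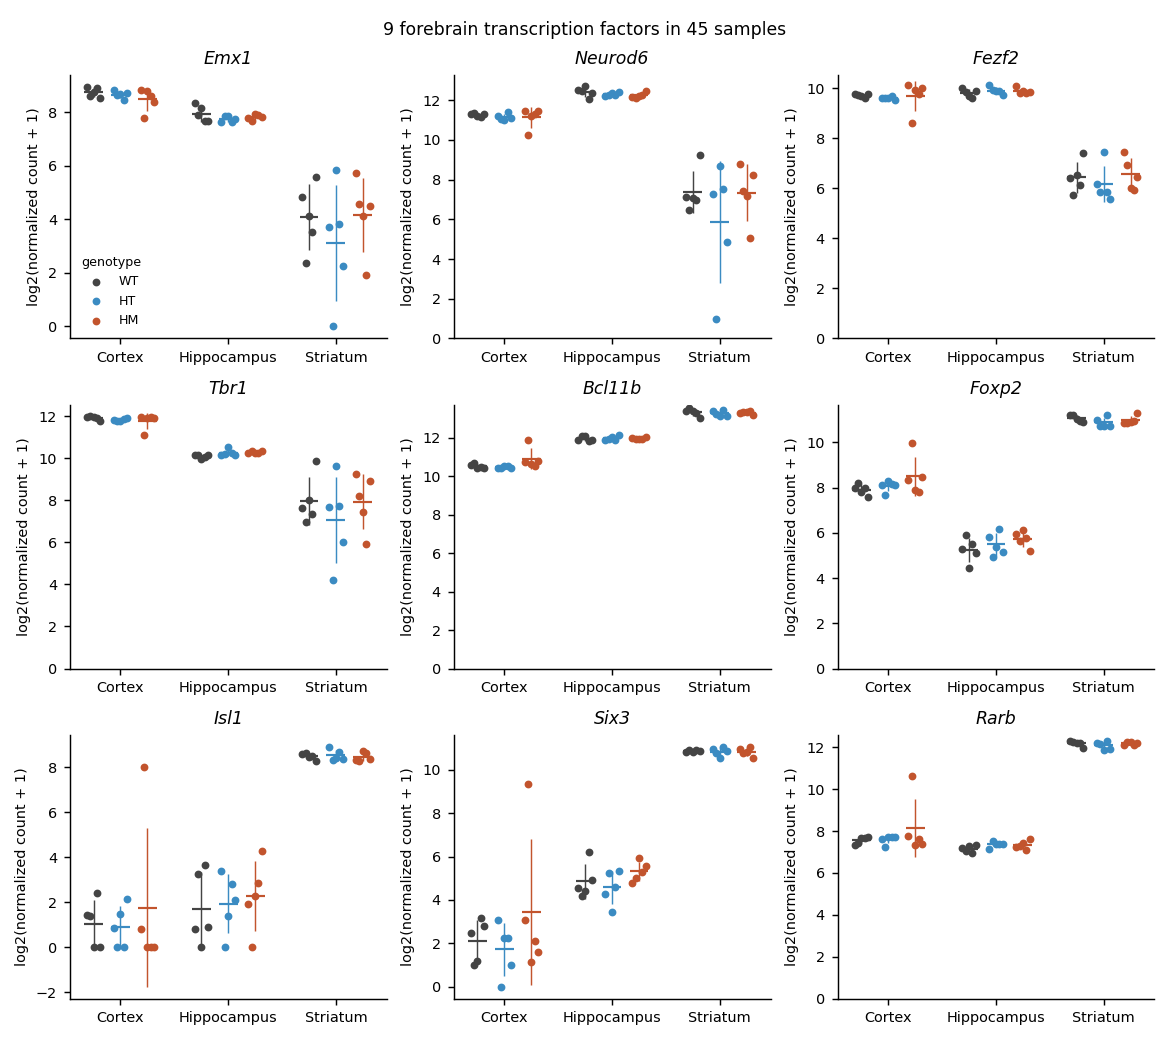
Normalized counts of the 9 genes in each of the 45 samples, on a log2(normalized count + 1) axis. Points are samples, horizontal bars are means and vertical bars ± 1 SD of the log2 values (n = 5), colored by genotype. The 4 pallial genes of the first panels drop in striatum, the other 5 are highest there, and a single HM cortex sample stands apart in the panels of Isl1, Six3 and Rarb.

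**Figure D2:**
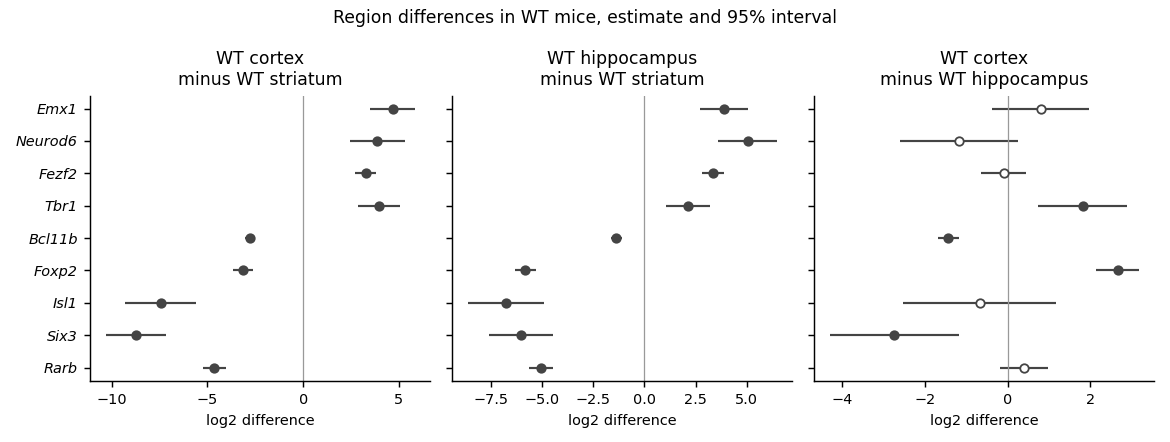
Differences between regions in WT mice on the log2 scale, with 95% intervals from the fit over 45 samples. Filled points passed the adjusted threshold. The first 4 genes lie to the right of 0 and the other 5 to the left in both comparisons with striatum, and 5 genes have open points between cortex and hippocampus, of which Isl1 entered the test only through its striatal level.

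All 9 genes passed the test between WT cortex and WT striatum, 4 higher in cortex and 5 higher in striatum. They had been chosen as markers of regional identity, with earlier results of these data known. The counts of region differences therefore describe these genes and are no test of the choice. Over all 16708 genes tested, 29.3% were called higher in cortex and 30% higher in striatum. The samples of the 2 regions did not overlap for any of the 9, as for 46.3% of all genes. The same 4 and 5 genes split WT hippocampus from WT striatum, where 28.3% of all genes were called higher in hippocampus and 27.8% higher in striatum, and 38.5% did not overlap. These 2 comparisons share the striatal samples. Between WT cortex and WT hippocampus, Tbr1 and Foxp2 were higher in cortex and Bcl11b and Six3 higher in hippocampus, and Emx1, Neurod6, Fezf2 and Rarb did not pass. Isl1 was under 10 normalized counts in both regions and entered this test only through its striatal level, so that its not passing says nothing. Here 23.3% of all genes were called higher in cortex and 23.3% higher in hippocampus. For 6 of the 9 genes the samples of cortex and hippocampus did not overlap, against 32% of all genes. Emx1, Neurod6 and Rarb passed as well when the fit held the WT groups of these regions alone, with adjusted p of 0.000385, 3.39e-07 and 0.0139, which made 7 called of the 8 genes tested there, against 7031 of all 16618. Rarb also passed without the cortex of HM replicate 2, with an adjusted p of 0.00118.

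The order of the 3 region means was the same in WT and HT mice for all 9 genes. In HM mice it was the same for 7, while Isl1 and Six3 had a higher mean in cortex than in hippocampus. Isl1 was at 0.764, 261, 0, 0 and 0 and Six3 at 7.43, 638, 1.17, 3.30 and 1.99 in the 5 HM cortex samples. The second sample alone was high in both, and the other 4 had means of 0.191 and 3.47, below the hippocampal HM means of 6.31 and 40.4.

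This cortex sample of HM replicate 2 had the highest or the lowest cortical value of each of the 9 genes. Rarb was at 213, 1565, 158, 196 and 169 in HM cortex, Foxp2 at 326, 1000.2, 238, 221 and 357 and Bcl11b at 1715, 3711, 1602, 1459.9 and 1766. The second value is the highest in each of these series, above every other cortical sample of the 15. The pallial genes were lowest in the same sample. Tbr1 was at 4029, 2209, 3901, 3964 and 3786, Neurod6 at 2816, 1204, 2399, 2573 and 2861, Fezf2 at 1122, 389, 959.7, 878 and 1017 and Emx1 at 455, 219, 449, 396 and 338. In each, the second value was below every other cortical sample.

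Set on a scale from the cortical WT median at 0% to the striatal WT median at 100%, the 9 genes of this sample lay between 25.1% (Bcl11b) and 71.1% (Isl1), with a median of 46.0%. Isl1 was followed by Fezf2 at 59.8%, Neurod6 at 54.7%, Emx1 at 50.9%, Tbr1 at 46.0%, Foxp2 at 41.0%, Six3 at 34.1% and Rarb at 30%. The pallial genes thus lay between 46.0% and 59.8%. The 15 markers of spiny projection neurons, all at least 4-fold apart between the regions, lay between 9.64% and 87.0% with a median of 19.8%. The 9 cholinergic neuron markers that were 4-fold apart lay between 31.6% and 281%, with a median of 50.4%. Gbx1, a homeobox gene on this list, stood at 119 normalized counts against a striatal WT median of 42.8, and Lhx8, a LIM homeobox gene of cholinergic neurons, at 164 against 149.9. Of the cortical projection neuron markers, 9 were 4-fold apart, with a median of 39.6%. Foxo1, Crym and Syt6 among these had their higher median in striatum. In bulk tissue, fewer cells of a type and less RNA per cell cannot be told apart, and the part of these markers in the levels of the 9 genes was not tested.

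**Figure D3:**
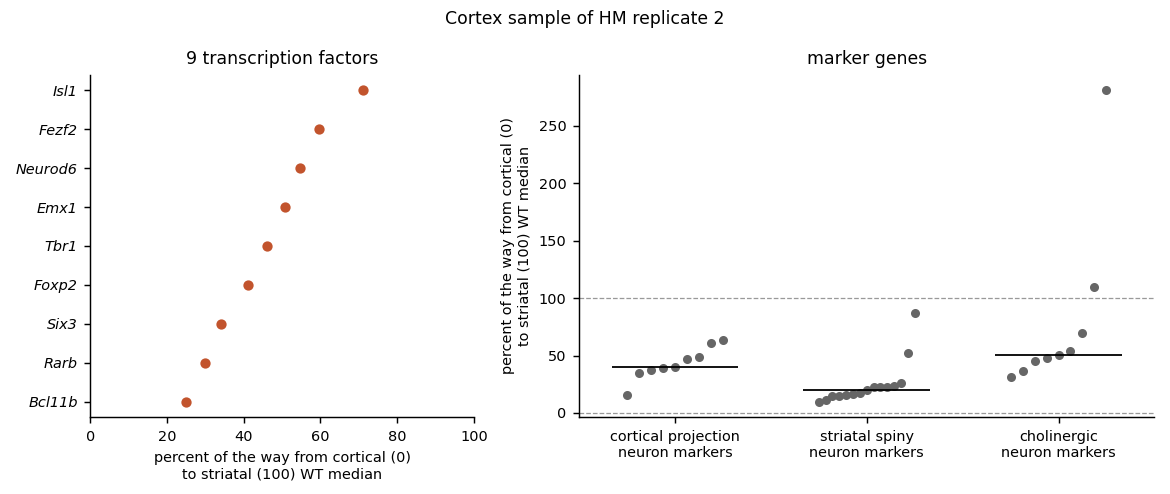
The cortex sample of HM replicate 2 on a scale from the cortical WT median (0%) to the striatal WT median (100%). The first panel gives the 9 genes, from Bcl11b at 25.1% to Isl1 at 71.1%, and the second gives marker genes at least 4-fold apart between the regions as points with their median as a line. The spiny projection neuron markers have a median of 19.8% and the cholinergic markers one of 50.4%.

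In the striatum, the pallial genes varied more between samples than the striatal genes did. Tbr1 was at 194, 124, 253, 163 and 943 in WT, at 207, 17.6, 790, 212 and 63.5 in HT and at 604, 292, 173, 59.2 and 477 in HM striatum. WT replicate 5, HT replicate 3 and HM replicate 1 were the 3 highest and HT replicate 2 was the lowest. Neurod6 was at 139.8, 89.2, 133, 124 and 606 in WT, at 154, 0.991, 407, 186 and 27.6 in HT and at 447, 171, 142, 32.5 and 301 in HM striatum. Its 3 highest samples and its lowest were the same as for Tbr1.

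Emx1 in HT striatum was at 12.0, 0, 57.2, 13.2 and 3.74 and in HM striatum at 51.9, 22.9, 16.6, 2.79 and 21.7. Fezf2 was at 71.3, 56.4, 171, 56.4 and 46.7 in HT and at 176, 121, 63.5, 59.3 and 86.6 in HM striatum. The same 3 samples again had the highest values of Emx1 and of Fezf2, and the lowest value of Emx1 was again in HT replicate 2, where it was listed at 0. As a share of the WT cortical median, Tbr1 was at 24.0% in WT replicate 5 and 0.448% in HT replicate 2. The coefficient of variation over the 5 samples of a striatal group ranged from 47.7% to 134% for the 4 pallial genes. For the other 5 genes it ranged from 3.64% to 17.8%. The summed level of 14 cortical projection neuron markers was highest in the same 3 samples, at 31682 in WT replicate 5, 30793 in HM replicate 1 and 28142 in HT replicate 3, against 18551 to 27505 in the other 12. Foxo1, Crym, Syt6 and Hs3st4 of this list had higher WT medians in striatum than in cortex. The other 10 markers alone summed to 18124, 16846 and 15737 in those 3 samples, against 6990.1 in HT replicate 2, the lowest, and 12958 in HM replicate 5, the next highest. The part of these markers in the spread of the pallial genes was not tested.

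**Figure D4:**
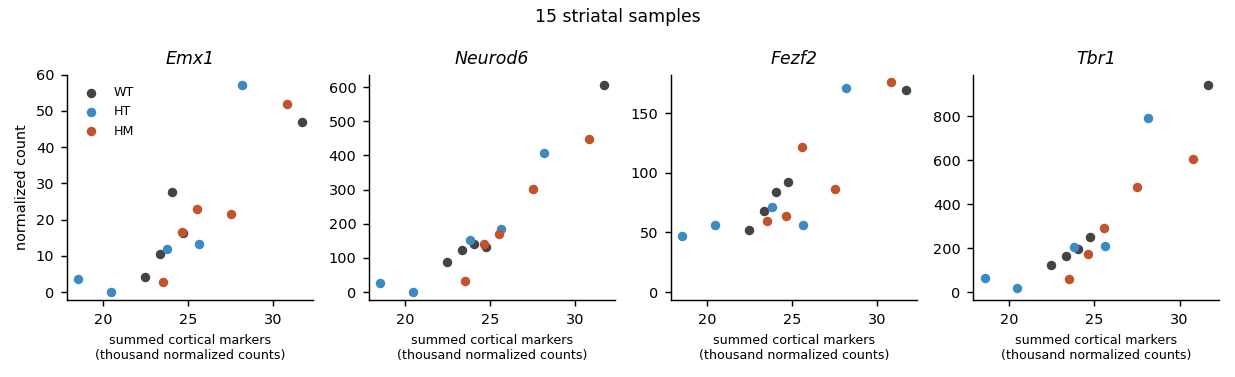
Normalized counts of Emx1, Neurod6, Fezf2 and Tbr1 in the 15 striatal samples against the sum of 14 cortical projection neuron markers in the same sample, colored by genotype. Of the 14 markers, 4 had higher WT medians in striatum than in cortex. The 3 samples with the highest sums, 1 of each genotype, have the highest values of all 4 genes.

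None of the 9 genes passed the limma test between a mutant group and WT in any region. At an unadjusted p under 0.05 there was 1 of them in HM cortex (Bcl11b) and 1 in HT and in HM hippocampus (Tbr1 in both), and 0 in HT cortex and in both mutant groups of striatum. Over all genes, such p-values were held by 907 of 16507 in HM cortex, 871 and 783 of 16571 in HT and HM hippocampus, and 1224 and 1225 of 16482 in HT and HM striatum. In cortex, HT against WT called 0% of 16507 genes (443 had an unadjusted p under 0.05), and the samples of none of the 9 genes were apart, against 0.63% of all genes. HM against WT called 0.0121% of genes in cortex, and again no gene of the 9 was apart, against 0.8% of all genes. Over the 7 genes other than Isl1 and Six3, the median log2 difference was -0.02 with replicate 2 and 0.12 without it, against -0.00255 and 0.00155 over all genes. The difference furthest from 0 was that of Six3, at 1.32 on the log2 scale with a 95% interval of -1.13 to 3.78, replicate 2 included. Isl1 (0.72), Foxp2 (0.59), Rarb (0.59) and Bcl11b (0.39) were positive too, and Bcl11b had an unadjusted p of 0.0367. Isl1 and Six3 passed the filter on low values in cortex through this sample alone. Without it, the log2 difference was -0.03 for Rarb, 0.22 for Foxp2 and 0.15 for Bcl11b, and 0 of the 7 genes left in the test were called. Fezf2 then had a mean of 994 in the other 4 HM samples against 836 in WT, a log2 difference of 0.25 with an adjusted p of 0.891. Its HM samples began at 877.7, just under the highest WT sample at 879.

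In hippocampus, Tbr1 was the gene whose mutant samples were all above WT. It was at 1132, 1129.8, 1011, 1074 and 1123 in WT, at 1135, 1189, 1472, 1218 and 1139 in HT and at 1229, 1298, 1216, 1213 and 1290.1 in HM hippocampus. All 10 mutant samples exceeded the highest WT sample, in the HT group by a small margin. The HT samples did not overlap WT for 0.797% of all genes and the HM samples for 0.736%, and Tbr1 was the 1 of 8 tested genes in each. HT against WT gave a log2 difference of 0.16 (SE 0.07, adjusted p = 0.926) and HM against WT a log2 difference of 0.19 (SE 0.07, adjusted p = 0.92). Neither passed, and both rest on the same WT samples. Without HT replicate 3 the HT difference was 0.10.

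The other 7 genes tested in hippocampus had unadjusted p-values above 0.05. Genes called over the whole table made up 0.00603% in HT against WT and 0.00603% in HM against WT, which was Shank3 in both. Bcl11b differed least, with 95% intervals of the log2 difference of -0.12 to 0.14 and -0.14 to 0.13 in HT and HM. Neurod6 means were 5546 ± 892 in WT, 5077 ± 268 in HT and 4869 ± 439 in HM hippocampus (SD, n = 5). The log2 difference for HM was -0.18, with an interval of -0.37 to 0.01. Foxp2 means were 39.2 ± 13.9, 46.1 ± 16.8 and 53.6 ± 12.9 in WT, HT and HM hippocampus (SD, n = 5), and the samples overlapped. Isl1 had a mean under 10 normalized counts there and was not tested. Six3 was at 22.4, 17.1, 20.3, 73.6 and 29.4 in WT hippocampus, and the fourth sample was also the one with the highest sum of choroid plexus markers. The part of those markers in its Six3 level was not tested.

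In striatum, the striatal genes had narrow intervals around 0. Rarb means were 4669 ± 377 in WT, 4367 ± 548 in HT and 4661 ± 213 in HM (SD, n = 5), and the 95% interval of the log2 difference was -0.26 to 0.06 for HT and -0.16 to 0.16 for HM. Six3 means were 1854 ± 67.5, 1837 ± 232 and 1827 ± 246, with intervals of -0.22 to 0.17 and -0.22 to 0.16. Isl1 means were 361 ± 34.7, 375 ± 66.9 and 357 ± 53.1, with intervals of -0.21 to 0.30 and -0.27 to 0.23. All of these intervals held 0 and the samples overlapped. Bcl11b had intervals of -0.24 to 0.13 and -0.21 to 0.16, and Foxp2 of -0.40 to 0.04 and -0.31 to 0.13.

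The intervals of Neurod6, Tbr1 and Emx1 in striatum were wide. Neurod6 had a log2 difference of -1.52 in HT striatum with an interval of -3.80 to 0.76, and of -0.04 in HM striatum with an interval of -2.32 to 2.23. Tbr1 had -0.90 and -0.02. Emx1 had -0.96 and 0.09. The HT values rested on HT replicate 2, the lowest sample of all 3 genes, and without it Neurod6 had -0.30, Tbr1 -0.19 and Emx1 -0.18. Fezf2 had intervals of -1.03 to 0.51 in HT and -0.65 to 0.89 in HM. The share of all genes called was 0.00607% in HT and 0.182% in HM striatum, and 0.971% and 1.86% of genes had samples that did not overlap WT, with none of the 9 among them. Among genes of the lists described below and of the cell markers, the one called in a genotype comparison was Lamp5, a membrane protein of superficial cortical neurons and some interneurons. It rose in HM striatum against WT (log2 difference of 0.53, adjusted p = 0.00178). The sum of 10 GABAergic interneuron markers, a list without Lamp5, was 37622 to 40296 in HM striatum, 33694 to 35423 in WT and 32126 to 38222 in HT, and its part in the Lamp5 difference was not tested. The list holds Gad1 and Gad2, which are not confined to interneurons, so in striatum the sum does not stand for interneurons alone.

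**Figure D5:**
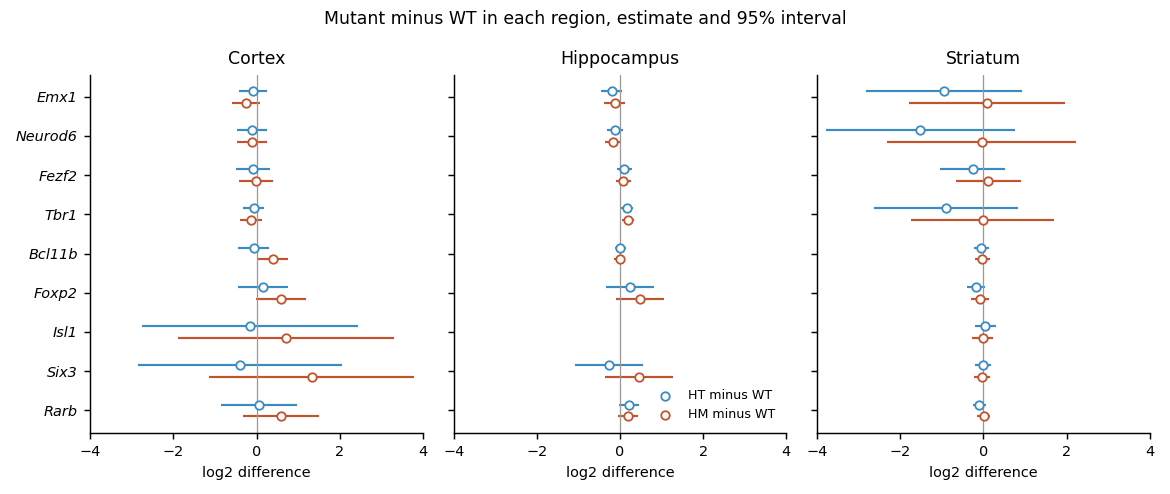
Differences of HT and HM from WT in each region on the log2 scale, with 95% intervals. All points are open, since none of the 9 genes passed the adjusted threshold. Intervals are wide for Isl1 and Six3 in cortex and for Emx1, Neurod6 and Tbr1 in striatum, and narrow for Bcl11b in hippocampus and for Rarb and Six3 in striatum.

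HM against HT called none of the 9 genes in cortex, hippocampus or striatum, where 0.00606%, 0.00603% and 0.14% of all genes were called. In cortex, Bcl11b had the smallest unadjusted p, 0.0152, at a log2 difference of 0.46 that held HM replicate 2, where 804 of 16507 genes had an unadjusted p under 0.05. Without that sample it was 0.23 (adjusted p = 0.844 by limma). The effect of a genotype was also compared between regions. For HT, none of the 9 genes and 0% of all 16708 genes differed between striatum and cortex, 0% between striatum and hippocampus, and 0% between cortex and hippocampus, with 578, 935 and 560 genes at an unadjusted p under 0.05. For HM the shares of all genes were 0.0539%, 0.0718% and 0%, again with none of the 9. The HM effect on Bcl11b was -0.41 on the log2 scale in striatum relative to cortex (unadjusted p = 0.0267, adjusted p = 0.856 by limma) and 0.39 in cortex relative to hippocampus (unadjusted p = 0.0345), where 906 and 743 of all genes had an unadjusted p under 0.05. Without the cortex of HM replicate 2 these values were -0.18 and 0.16. Without the cortex of HM replicate 2, no gene of the 9 was called in the comparisons of genotype either.

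The paralogs of the 9 genes did not all share their regional pattern. Of 17 listed paralogs 13 had a row, and 12 passed the filter on low values. Between WT cortex and WT striatum, 8 were higher in cortex, 2 higher in striatum and 2 not called, with a median log2 difference of 0.68 against -0.01 over all genes. Of all genes, 29.3% were called higher in cortex and 30% higher in striatum. Neurod2 and Neurod1, like Neurod6 factors of glutamatergic neurons, had WT means of 2110 and 272 in cortex, 4183 and 624 in hippocampus and 149 and 3.59 in striatum. Foxp1 was high in striatum, as Foxp2 was, with 11097 against 2877 in cortex and 1733 in hippocampus, whereas Foxp4 was higher in cortex, with 897 against 670.0. Bcl11a went against Bcl11b, with 2868 in cortex, 3090 in hippocampus and 1914 in striatum. Six4, a relative of Six3, was at 96.0 in cortex and 7.36 in striatum. Emx2 was at 352, 430 and 204 in cortex, hippocampus and striatum. Eomes, the relative of Tbr1 known from intermediate progenitors, was at 27.6 in hippocampus and 1.21 in cortex. No paralog passed in a genotype comparison.

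The receptors related to Rarb also parted. Rara was higher in cortex, at 372 against 112 in striatum (log2 difference of 1.75), and Rarg was higher in striatum, at 413 against 259 (-0.67). Rxrg, which pairs with retinoic acid receptors, was at 4644 in WT striatum against 87.7 in cortex, a log2 difference of -5.74. Of the 16 tested genes of the retinoic acid pathway, 4 were higher in cortex and 10 higher in striatum, with a median of -0.34. Over all genes, 29.3% were called higher in cortex and 30% higher in striatum. Crabp1, a binding protein for retinoic acid, was at 145 in striatum, 16.4 in hippocampus and 1.95 in cortex. Cyp26b1, an enzyme that degrades retinoic acid, was highest in hippocampus, at 375 against 94.4 in cortex and 36.8 in striatum. Aldh1a3, an enzyme that makes it, was at 67.9 in cortex, 19.96 in hippocampus and 8.98 in striatum. Between cortex and hippocampus 2 genes of this pathway were higher in cortex and 7 in hippocampus, where 23.3% of all genes were called on each side. Between hippocampus and striatum 6 were higher on each side, where 28.3% of all genes were called higher in hippocampus and 27.8% higher in striatum.

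Other transcription factors were counted in 3 lists beside the 9 genes. Of 25 pallial factors 20 were higher in WT cortex than in WT striatum and 2 lower, with a median log2 difference of 1.2, led by Neurod1, Bhlhe22 and Neurod2. Between cortex and hippocampus 7 of them were higher in cortex and 12 higher in hippocampus, with a median of -0.28. Cux2 and Mef2c, factors of cortical layers, were among the 7, at 4799 and 21428 normalized counts in WT cortex and 629 and 3251 in WT hippocampus. Neurod1 and Bhlhe22 were among the 12, the latter at 637 in cortex and 2317 in hippocampus. Of 22 tested subpallial factors 17 were higher in striatum than in cortex and 0 lower, with a median of -2.17. Lhx8 (149.0 in striatum, 0.647 in cortex), Rxrg and Nkx2-1 (123 and 1.99) led this list. Of 14 hippocampal factors 8 were higher in hippocampus than in cortex and 1 lower, with Lhx9 at 457.0 against 5.17, Prox1 at 3511 against 345 and Nr3c2 at 4533 against 873. The medians over all genes were -0.01 in these comparisons. Between cortex and striatum 29.3% of all genes were called higher in cortex and 30% higher in striatum. Between cortex and hippocampus 23.3% of all genes were called higher in cortex and 23.3% higher in hippocampus. No gene of the 3 lists passed between genotypes.

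The genes whose log2 values followed those of each gene most closely over the 45 samples differed between the groups. These correlations rest on samples of 3 regions and on shared libraries, and they are descriptions. Pearson's r was 0.989 between Neurod6 and Neurod2, 0.988 between Emx1 and Slc17a7, the vesicular glutamate transporter of cortical neurons, 0.991 between Fezf2 and Olfm1, and 0.985 between Tbr1 and Prss12. Rarb went with Gnal, Adcy5 and Pde1b, genes of striatal cyclic nucleotide signaling (0.996 each). Six3 was closest to Stk32a (0.983), Bcl11b to Rem2 (0.994), Foxp2 to Arhgap33 and Elmo1 (0.985 each) and Isl1 to Ecel1 (0.966).

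When the mean of its group was taken from each value, the 4 pallial genes still went together over the 45 samples. Their spread was largest in striatum, where the SE of HT minus WT was 1.08 for Neurod6 and 0.82 for Tbr1. In cortex the SE was 0.17 and 0.12, and in hippocampus 0.09 and 0.07. The striatal samples thus weigh most in these correlations, which were not computed within a single region. Over the 45 deviations r was 0.951 between Neurod6 and Tbr1, 0.945 between Emx1 and Tbr1, and 0.925 between Emx1 and Neurod6. Fezf2 was less close, with 0.754 to Tbr1, 0.741 to Emx1 and 0.615 to Neurod6. Slc17a7 was the gene closest to Tbr1 (0.986) and to Neurod6 (0.978), and Neurod2 the closest to Emx1 (0.968). For the striatal genes these figures rested on the cortex of HM replicate 2. Rarb and Six3 had an r of 0.859 with this sample and 0.363 without it, and the gene closest to Rarb, Gng7 at 0.951, gave way to Wnt2 at 0.641 without it. Six3 and Six3os1 went from 0.897 to 0.604, and Isl1 from Slc32a1 at 0.830 to Adgrd1 at 0.692. The pallial figures moved little, with 0.985 between Tbr1 and Slc17a7 over the other 44 samples.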

How the data were processed

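Messenger RNA of 45 samples was sequenced from libraries made with the TruSeq Stranded mRNA kit. The deposited values are signal per gene: the authors quantified reads with Salmon, imported them with tximport and normalized them over all samples with DESeq2. The submitters' processing notes list Salmon 1.1.0, DESeq2 1.26.0 and GRCm38. The values are not whole, whole reads could not be recovered from them (at most 25.2% of low values were whole multiples within 0.05, where 10% would be by chance), and no count model was used.

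Tests used limma 3.58.1 in R 4.3.3 with an intensity trend on log2(normalized count + 1), for genes with a mean of at least 10, with Benjamini-Hochberg adjustment over all genes tested. Genotypes were compared within each region over its 15 samples. Regions, and genotype effects between regions, were compared in a fit of 45 samples in 9 groups. The steps were tested on simulated data. A fold change on the log2(value + 1) scale understates that of low genes.

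The 9 genes and the gene lists were chosen with earlier results of these data known. Named were the 9 genes, their paralogs, the 3 genes of each list with the largest difference past the threshold in each WT comparison, listed genes past it between genotypes, and the 3 genes most correlated with each of the 9, of which the first is mostly given. A gene that this rule names is not reported here. Marker genes, and Lhx8 and Gbx1, were named after their values were seen. Alternatives changed the pseudocount, the filter, the trend, the normalization, the samples in the fit and the replicate block, and left out each sample in turn.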

Additional observations from a re-analysis of the deposited data

Results flagged for a closer look

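In 17 of 81 groups of 5 samples, a value stood apart from the other 4 by Dixon's test at the 95% level, which chance gives in about 1 of 20 groups. Of these, 7 were in the cortex of HM replicate 2, where Neurod6 was at 1204 and Tbr1 at 2209, below the others, and Bcl11b at 3711, Foxp2 at 1000, Isl1 at 260.9, Six3 at 637.9 and Rarb at 1565, above them.

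In striatum, Neurod6 at 606.2 and Tbr1 at 943 in WT replicate 5, and Emx1 at 57.2, Fezf2 at 171.3 and Tbr1 at 790 in HT replicate 3, were above the other 4 samples of their groups. Foxp2 at 2567 in HM striatum replicate 5 stood above a range of 1855 to 1974. In hippocampus, Tbr1 at 1472 in HT replicate 3, Fezf2 at 1073 in HM replicate 1 and Six3 at 73.57 in WT replicate 4 were the highest of their groups. Rarb at 152.1 in HT cortex replicate 2 was below the other 4, which ranged from 197 to 212.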

How the results depend on the processing

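Of 392 counts of called genes among the 9 recomputed under alternatives, 391 stayed within 1.5 times the reported count. The exception was WT cortex against WT hippocampus, where a fit of the WT groups of these regions alone called 7 genes of the 8 tested in place of 4 of 9, and 7031 of all 16618 genes in place of 7790 of 16708. Among the values of single genes 3244 kept direction and side of the threshold, 191 that had not passed moved, 5 passed that had not, and 0 called values reversed or fell below the threshold. Leaving out any sample gave 0 called among the 9 in each genotype comparison.

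The replicate numbers were not taken to pair the samples, since same-numbered samples did not all correlate above 0.1 in any comparison (for example 0.0394 to 0.204 between WT hippocampus and striatum). As a hint from the data, 3 or 4 of 5 samples correlated best with their own number in 6 of 9 comparisons between regions, and all 5 did in 0. Between WT hippocampus and striatum the median was 0.160 for the same number and -0.0435 for other numbers. Between HT cortex and hippocampus these medians were -0.0222 and 0.00101. The fits over 45 samples without the block treated the samples as independent, and whether the regions share mice stays unknown. With a replicate block, 0 of the 9 genes were called between genotypes, and 9, 4 and 9 between the WT regions. Over all genes, the few calls between mutant groups were less stable. The HM effect in striatum against cortex had 9, with 20 under the block, 17 without the 4 samples that stood apart on the markers (the cortex of HM 2 and the striatum of WT 5, HT 3 and HM 1, chosen after seeing the data), 0 in a fit of only the groups compared, and 4 to 22 when a sample was left out (WT replicates 2 and 5 of striatum). The HM effect in striatum against hippocampus had 12, with 7 without an intensity trend, 6 in the fit of only the groups compared and 2 to 12 when a sample was left out, with the lowest without replicate 1 of WT hippocampus or of WT striatum. In striatum, HM against HT had 23, with 11 without a trend, 7 in the fit of only the groups compared, 15 without the 4 samples, and 3 (without HT replicate 5) to 28 (without HT replicate 4). HM against WT there had 30, with 18 without a trend, and 12 (without HM replicate 2) to 33 (without HM replicate 1), with 19, 19 and 18 without WT replicates 1, 3 and 4. The single call of HT against WT in striatum became 0 or 2 in 9 of 10 fits that left out a sample, and the 2 calls of HM against WT in cortex became 1 in 8 of 10. Depth is unknown, so that no counting error could be given, and the values of Isl1 and Six3 near 0 outside striatum have no stated precision.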
